A study of Mus musculus with 14 samples.

Results

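The Pax7 locus was examined in 6 consensus peak lists from CUT&Tag, an assay in which an antibody directs a transposase to cut chromatin next to its target. The locus was taken as the GENCODE canonical transcript of Pax7 (ENSMUSG00000028736.15, chr4:139464373-139560839 in GRCm39, minus strand, 9 exons, 96467 bp) with 100 kb added on both sides, which gave a window of 296.5 kb. All peaks overlapping this window were members, 140 of the 175565 peaks in the 6 lists. The locus had been chosen by measured values of these same lists, namely its number of peaks and its high-ranking pSMAD1/5/9 peak after BMP6. Peak numbers and ranks are therefore given as a description, with no test.

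Cultured adult muscle stem cells (MuSCs) were profiled for pSMAD1/5/9, SMAD4 and H3K27ac after BMP6 or vehicle, with 2 biological replicates behind each list. All cells came from female mice at 9 weeks of age with the genotype C57BL/6N(Tg(Pax7-EGFP)Tajb), were sorted for the PAX7-GFP reporter after a day in culture and were grown on for further days. Both groups were then starved of serum for 6 h with 200 ng/mL soluble BMPR1A-Fc, which binds free BMP ligands. BMP6-stimulated cells received 100 ng/mL BMP6 for 1 h, and control cells received 4 mM HCl with 0.1% BSA for the same time. Each library used 100000 lightly fixed cells. A further 2 libraries, made with no primary antibody, are not analysed here.

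The reporter limits what can be said about this gene in particular. The cells were selected for Pax7 promoter activity, and every library of both groups carries the Pax7-EGFP transgene. How much Pax7 sequence the transgene holds, and in how many copies, is not given in the sources used here. Reads from transgene copies of Pax7 sequence would be placed at the same coordinates, so signal from the transgene and from the endogenous gene cannot be told apart in these lists.

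Pax7 encodes a paired-box transcription factor that marks MuSCs and is needed for their maintenance. BMP ligands act through receptor kinases that phosphorylate SMAD1, SMAD5 and SMAD9, which enter the nucleus with their partner SMAD4 and bind DNA. H3K27ac is a histone mark of active promoters and enhancers.

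The labelled cell type was set beside H3K27ac peaks at marker genes. The share of all genes with such a peak is not given here, so these counts have no background. Of 10 MuSC markers, 9 had an H3K27ac peak within 2 kb of the transcription start site (TSS) in both treatments, the exception being Calcr. The peak at Myf5, a myogenic regulatory factor, ranked 14 with BMP6 and 1 in control cells. The lowest-ranked MuSC marker with a peak was Sdc4, at 27730 and 21247. None of 5 endothelial markers had such a peak. For the immune list it was 1 of 5 with BMP6 and 2 of 5 in control, and in both treatments it was 2 of 5 for fibro-adipogenic cells, 2 of 5 for mural cells and 1 of 5 for Schwann cells. Some of these peaks ranked as high as those of MuSC markers. The peak at the mural marker Notch3 ranked 1834 with BMP6 and 4132 in control, and that at the fibro-adipogenic marker Dpt 2599 and 3494. The others ranked between 22344 and 61282. Whether these genes are particular to the cell type they were listed for was not tested. A peak at them therefore does not show that other cells were present. Any part of other cells in the peaks at Pax7 was not tested either.

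Strength is given as rank by consensus signal within a list, with 1 for the strongest peak, since signals of different lists share no stated scale. Libraries of an antibody had been brought to the same read depth, but read numbers are not part of the lists, so the depth itself cannot be given. Distances run from the Pax7 TSS to the summit of a peak, and "downstream" is the direction of Pax7 transcription, toward Tas1r2.

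The sequences at the summits that lead the results are shown first, as 200 bp of the plus strand of GRCm39, read from the reference genome. Capitals mark GGCTCC or GGAGCC, the 2 strands of a GC-rich element known to be bound by BMP-responsive SMADs, TGAGTCA, an AP-1 element, or GTGGGAA, an RBPJ element. The first window is centered on the strongest BMP6 pSMAD1/5/9 peak of the locus, 135.5 kb downstream (chr4:139425206-139425405), and the second on the strongest control pSMAD1/5/9 peak, 143.8 kb downstream (chr4:139416988-139417187). The next pair are sites found in all 4 SMAD lists, 116.9 kb downstream (chr4:139443817-139444016) and in intron 7 (chr4:139498612-139498811). The last pair are the strongest control SMAD4 peak, in intron 4 (chr4:139550737-139550936), and the BMP6 pSMAD1/5/9 summit just upstream of the TSS (chr4:139561017-139561216).
BMP6 pSMAD1/5/9 summit at 135.5 kb: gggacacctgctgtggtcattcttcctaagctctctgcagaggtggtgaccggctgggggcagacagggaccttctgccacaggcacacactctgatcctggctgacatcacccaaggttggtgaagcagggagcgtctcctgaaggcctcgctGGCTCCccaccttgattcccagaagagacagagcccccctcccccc
Control pSMAD1/5/9 summit at 143.8 kb: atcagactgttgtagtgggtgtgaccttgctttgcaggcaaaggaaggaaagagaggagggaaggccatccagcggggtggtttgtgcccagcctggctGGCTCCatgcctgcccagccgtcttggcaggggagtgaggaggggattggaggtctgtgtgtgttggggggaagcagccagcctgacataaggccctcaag
Site in all SMAD lists at 116.9 kb: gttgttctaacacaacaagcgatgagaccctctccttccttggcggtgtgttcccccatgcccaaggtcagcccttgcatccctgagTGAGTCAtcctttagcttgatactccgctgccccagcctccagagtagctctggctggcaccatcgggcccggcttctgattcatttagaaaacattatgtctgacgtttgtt
Site in all SMAD lists at 62.1 kb: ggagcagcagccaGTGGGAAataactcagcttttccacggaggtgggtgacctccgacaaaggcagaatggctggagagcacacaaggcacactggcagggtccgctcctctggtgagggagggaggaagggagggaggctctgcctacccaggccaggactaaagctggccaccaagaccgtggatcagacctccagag
Control SMAD4 summit at 10.0 kb: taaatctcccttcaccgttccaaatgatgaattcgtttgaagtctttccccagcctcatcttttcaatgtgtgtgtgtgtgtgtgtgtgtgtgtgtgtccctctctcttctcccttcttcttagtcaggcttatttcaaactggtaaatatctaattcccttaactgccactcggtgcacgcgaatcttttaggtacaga
BMP6 pSMAD1/5/9 summit at the TSS: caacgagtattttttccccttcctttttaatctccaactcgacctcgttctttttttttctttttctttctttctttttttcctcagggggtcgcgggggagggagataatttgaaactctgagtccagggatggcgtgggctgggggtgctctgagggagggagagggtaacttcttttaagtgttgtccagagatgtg
The first pair each held 1 copy of GGCTCC, at bases 155 to 160 and 100 to 105 of the printed window. Neither of the last pair held any of the 7 motifs searched, and the intron 4 window contained a run of alternating T and G.

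The pSMAD1/5/9 list of BMP6-stimulated cells held 21 peaks at the locus of 7339 in all, and that of control cells held 11 of 949. Of all 21757 protein-coding genes treated in the same way, 52.2% had at least 1 BMP6 pSMAD1/5/9 peak in their window and 15.5% had at least 1 control peak. The 11 control peaks made up 1.16% of the control list and 2.06% of its summed signal. The 21 BMP6 peaks made up 0.286% of their list and 0.618% of its signal.

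SMAD4 peaks were more numerous. There were 38 of 12860 after BMP6 and 28 of 8577 in control cells, while 63.1% and 55.8% of genes had at least 1 SMAD4 peak of the respective list. For H3K27ac the locus held 20 of 78050 peaks with BMP6 and 22 of 67790 in control, against 85.9% and 85.3% of genes with at least 1. The median gene had 10 H3K27ac peaks with BMP6 and 9 in control. Those of the locus were broad, covering 66.4% of the window with BMP6 and 65.1% in control cells. Their median width was 3570 bp and 2450 bp, compared with 1470 bp and 1400 bp over the whole lists.

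**Figure D1:**
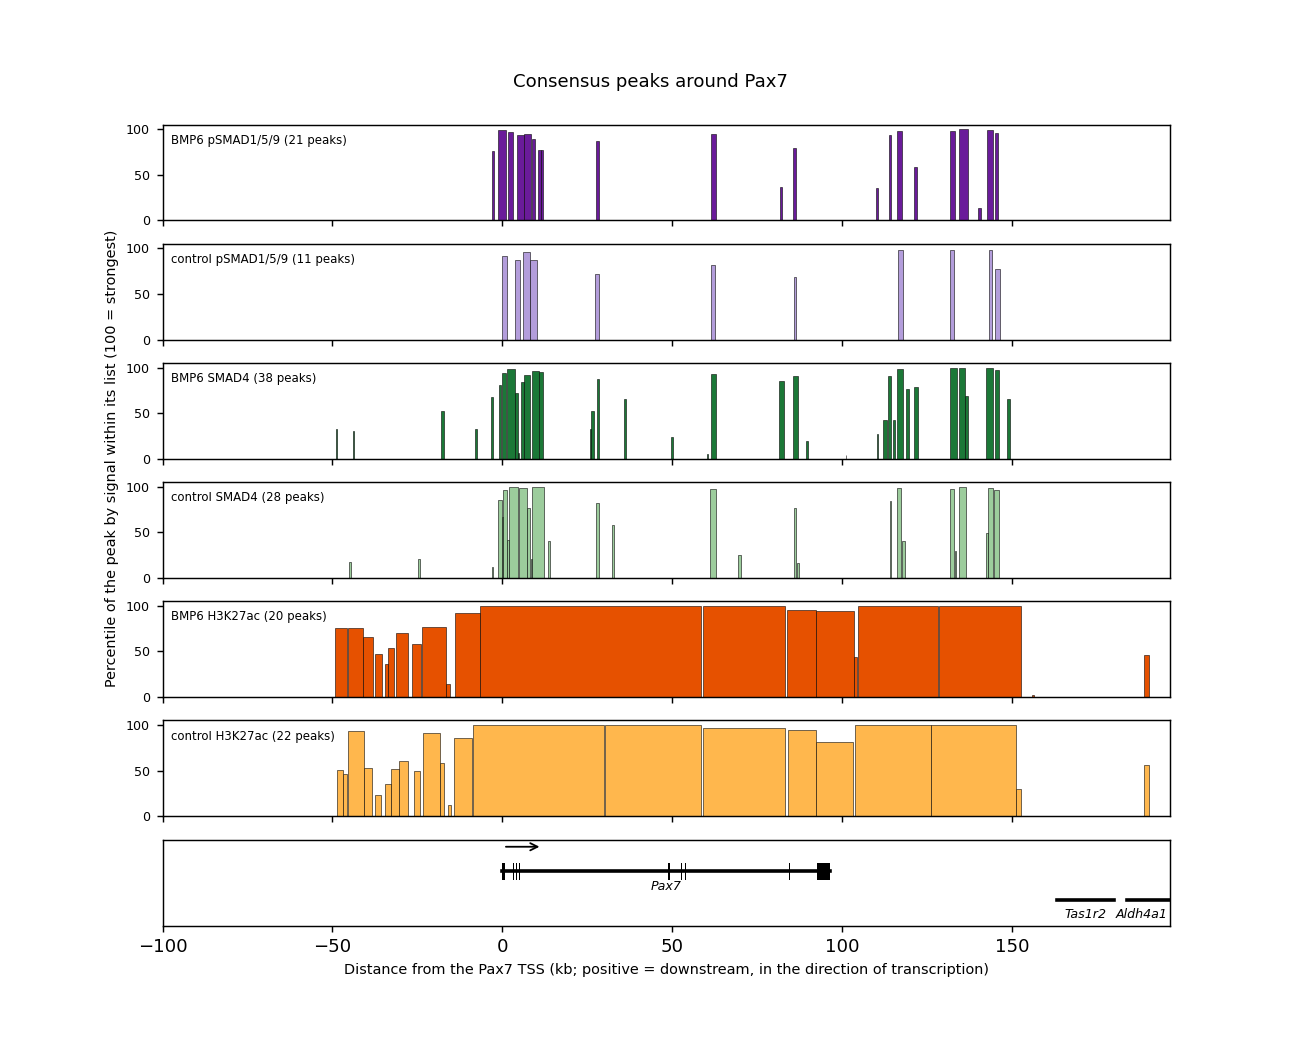
Each bar is a consensus peak at its true width, placed by distance from the Pax7 TSS in kb (x axis, positive downstream), with its percentile by signal within its own list as height (y axis, 100 is the strongest). The lower panel shows Pax7 with its exons, Tas1r2 and Aldh4a1; SMAD peaks cluster at the 5′ end of the gene and between 101.2 and 149.4 kb downstream, and none lies at Tas1r2.

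SMAD peaks fell into a promoter-proximal cluster, scattered intronic sites and a distal cluster past the 3′ end of Pax7. The distal cluster lay in the intergenic stretch between Pax7 and Tas1r2, which encodes a subunit of the sweet taste receptor. It held 9 of the 21 BMP6 pSMAD1/5/9 peaks, 4 of the 11 control ones, 14 of the 38 BMP6 SMAD4 peaks and 9 of the 28 control SMAD4 peaks. The gene body beyond 2 kb from the TSS held 10, 6, 17 and 12 in the same order. Upstream of the promoter there were 1, 0, 5 and 3, the best of which ranked 1781 among BMP6 pSMAD1/5/9 peaks, 4224 among BMP6 SMAD4 and 6794 among control SMAD4 peaks.

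Tas1r2 itself (chr4:139380849-139397591) carried no peak of any list over its body or within 2 kb of its TSS. Aldh4a1, which encodes a mitochondrial enzyme of proline breakdown, lies partly inside the window. The readthrough gene model Gm21969 runs across Aldh4a1 and into Tas1r2.

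The strongest BMP6 pSMAD1/5/9 peak of the locus ranked 9 of 7339 (chr4:139423909-139426560, 135.5 kb downstream, intergenic). Its signal score was 77223 in the first replicate column and 53515 in the second, and it ranked 12 in both. No control pSMAD1/5/9 peak overlapped it, although control peaks were listed on both sides at 132.2 and 143.8 kb. The place was not free of SMAD4 in control cells. The control SMAD4 peak there ranked 27 of 8577, or 68 and 8 by the replicate columns, and the BMP6 SMAD4 peak ranked 73 of 12860. The summit of the strongest control H3K27ac peak of the locus, at rank 32 (222 and 8 by the replicate columns), fell on the same base, 139425306, as the BMP6 pSMAD1/5/9 summit.

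The strongest control pSMAD1/5/9 peak (chr4:139416681-139417680, 143.8 kb downstream) ranked 13 of 949, with signal scores of 60949 and 42067 in the replicate columns. The BMP6 pSMAD1/5/9 peak at this site ranked 63, with 47352 and 47584, and ranked 155 and 26 by the replicate columns. The strongest BMP6 SMAD4 peak of the locus lay here as well, at rank 51 (chr4:139416355-139418565), with 47363 and 32827. This site was thus listed by both antibodies under both treatments.

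The next strongest pSMAD1/5/9 peaks had the same property. In control cells they ranked 15 at 132.2 kb, with 48726 and 44874, and 20 at 116.8 kb, with 48814 and 36913. The BMP6 pSMAD1/5/9 peak at the first of these places ranked 117, but 321 by the first replicate column and 31 by the second. At the other place it ranked 111, and 98 and 155 by the replicate columns. The BMP6 SMAD4 peaks there ranked 90 and 137, and the control SMAD4 peaks 172 and 72.

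The strongest control SMAD4 peak lay near the other end of the gene, in intron 4, 10.0 kb downstream (chr4:139548520-139552149). It ranked 10 of 8577, with signal scores of 52014 and 36920. The control SMAD4 peak at 2.9 kb in intron 1 (chr4:139556101-139558947) ranked 19, with 46301 and 37007. After BMP6 the SMAD4 peaks at these places ranked 491 and 167 of 12860. Since ranks in lists of unequal length are not a measure of change, no difference between treatments can be read from them.

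At the promoter, BMP6-stimulated cells had a pSMAD1/5/9 peak over the TSS at rank 48 (chr4:139559791-139562124), with its summit 0.3 kb upstream of the TSS. Its signal scores were 68329 and 31497, and its rank was 26 by the first replicate column and 159 by the second. The control pSMAD1/5/9 peak at the TSS ranked 78 of 949 (chr4:139559601-139560920), with 36947 and 26339. Its summit lay 0.5 kb downstream, in exon 1. A second BMP6 pSMAD1/5/9 peak reached to within 2 kb of the TSS from intron 1, with its summit 2.9 kb downstream. It ranked 232, with signal scores of 50167 and 18901.

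SMAD4 was listed at the promoter under both treatments. With BMP6, 3 SMAD4 peaks came within 2 kb of the TSS, at ranks 167, 811 and 2456. In control cells there were 5, at ranks 19, 306, 1206, 2803 and 5059. The H3K27ac peak over the TSS ranked 17 of 78050 with BMP6 (chr4:139502301-139567400) and 68 of 67790 in control cells (chr4:139530801-139569600), where it ranked 171 and 38 by the replicate columns.

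The widest gaps between the replicate columns were among H3K27ac peaks. The BMP6 H3K27ac peak over the TSS had signal scores of 7611 and 21899, which placed it at rank 182 by the first column and 20 by the second. The largest ratio between the replicate ranks of a peak was 72.7 for BMP6 H3K27ac, at the peak 116.9 kb downstream with ranks of 1673 and 23, and 27.8 for control H3K27ac. It was 2.73 for BMP6 SMAD4, 3.0 for control pSMAD1/5/9, 8.5 for control SMAD4 and 10.4 for BMP6 pSMAD1/5/9, the last at the peak 132.3 kb downstream. The median ratio lay between 1.33 and 1.64 in all lists.

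**Figure D2:**
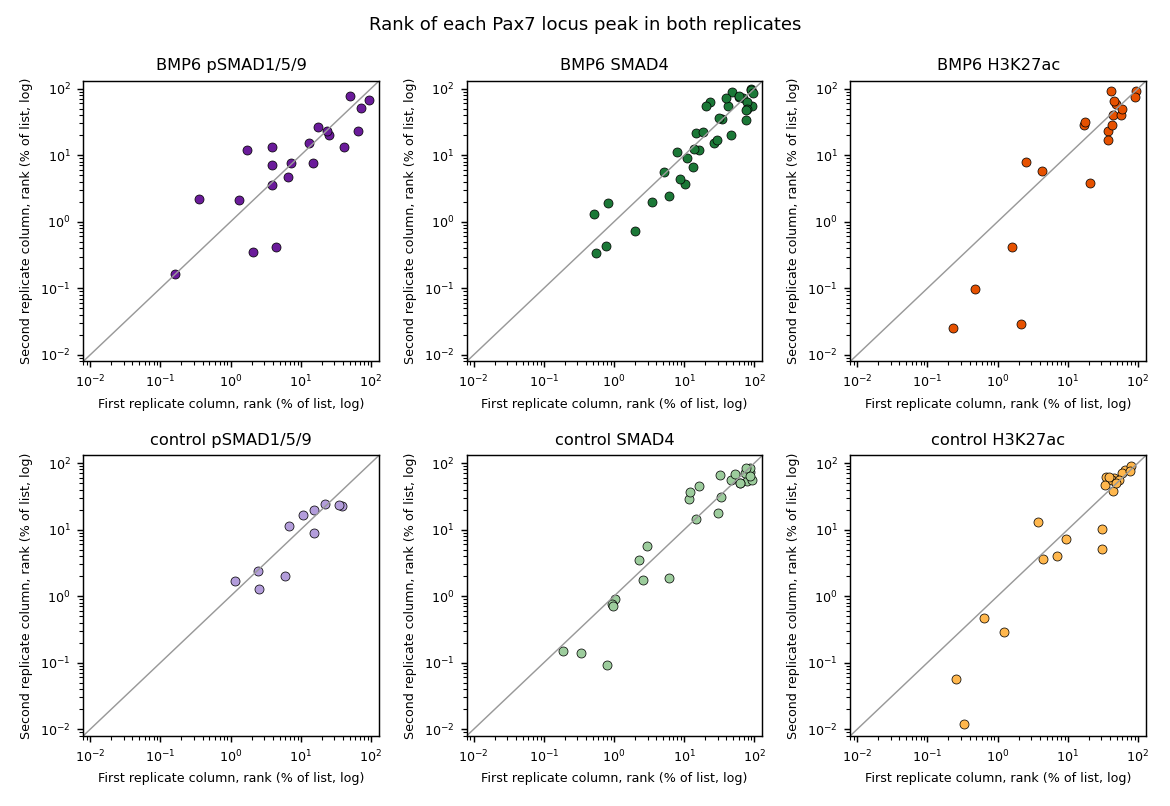
Each point is a peak of the Pax7 locus, placed by its rank in the first (x axis) and second (y axis) replicate column, as a percent of the list on log axes; the grey line marks equal ranks. Most points lie near the line, while the strongest H3K27ac peaks lie below it, with higher signal ranks in the second column.

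Spearman correlations between the replicate columns, over the peaks of the locus, ranged from 0.847 (n = 21, BMP6 pSMAD1/5/9) to 0.922 (n = 28, control SMAD4). These points share their libraries and neighboring sequence, and peaks entered the lists through agreement between replicates.

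Peaks of the 4 SMAD lists that overlapped by at least 1 bp were joined, which gave 35 sites. Of these, 8 were in all 4 lists, at 145.4, 143.7, 132.3, 116.9, 86.2, 62.1, 28.1 and 10.0 kb downstream. The last was the promoter-proximal cluster, a run of 29 overlapping peaks over 13605 bp from intron 4 to just upstream of the TSS (chr4:139548520-139562124). It comprised 7 BMP6 and 4 control pSMAD1/5/9 peaks and 9 SMAD4 peaks of each treatment. Not every peak in this run was shared. The BMP6 pSMAD1/5/9 peaks at 11.7, 10.8 and 2.9 kb downstream ranked 1630, 1638 and 232. They overlapped control SMAD4 peaks but no control pSMAD1/5/9 peak.

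The other sites in all 4 lists were 3 in introns and 1 in the distal cluster. In intron 8, at 86.2 kb, ranks were 1470 and 292 for BMP6 and control pSMAD1/5/9, and 1252 and 2050 for BMP6 and control SMAD4. At 62.1 kb in intron 7 they were 337, 167, 853 and 207 in the same order. At 28.1 kb in intron 4 they were 975, 270, 1646 and 1513. At 145.4 kb, the distal site closest to Tas1r2 in all 4 lists, they were 256, 213, 345 and 295.

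A further 3 sites were in every SMAD list but control pSMAD1/5/9, at 135.5, 114.3 and 2.9 kb from the TSS, the last of them upstream. At 114.3 kb the BMP6 pSMAD1/5/9 peak ranked 426. The BMP6 pSMAD1/5/9 and SMAD4 lists alone shared 3 sites, at 121.7, 110.4 and 82.2 kb. Another 15 sites were in the BMP6 SMAD4 list alone, 5 in the control SMAD4 list alone and 1, at 140.5 kb with rank 6313, in the BMP6 pSMAD1/5/9 list alone. No site was in the control pSMAD1/5/9 list alone. Shares of these patterns over all sites of the whole lists are not given here. The BMP6 lists are also longer, with 12860 SMAD4 and 7339 pSMAD1/5/9 peaks against 8577 and 949 in control. No difference between treatments is therefore read from these site counts.

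**Figure D3:**
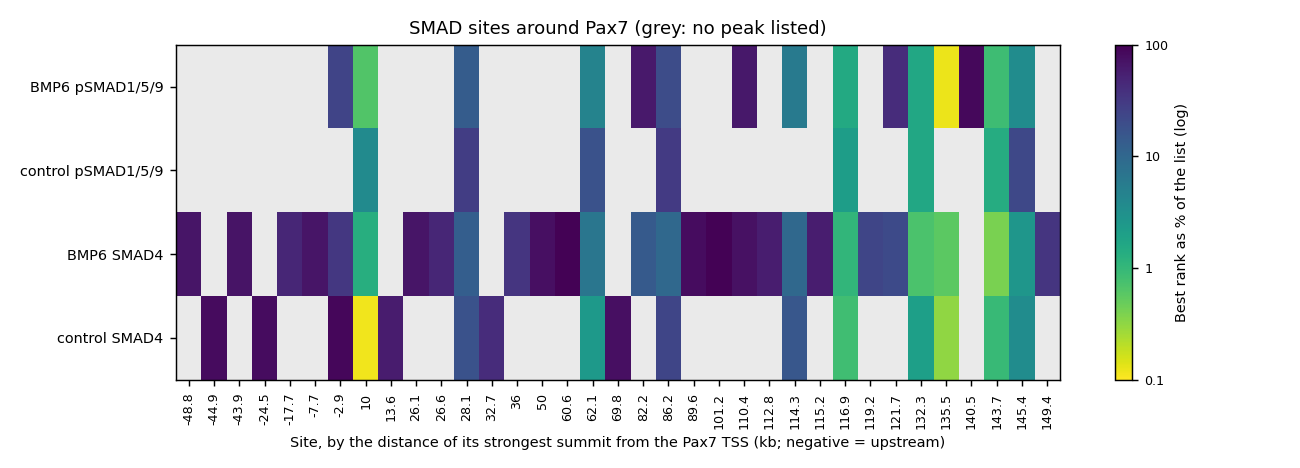
Columns are the 35 SMAD sites in order of distance from the Pax7 TSS in kb (negative is upstream), rows are the 4 SMAD lists, and color gives the best rank at the site as a percent of its list on a log scale, with grey for no listed peak. The brightest columns, between 116.9 and 143.7 kb and at 10.0 kb, are filled in at least 3 lists.

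Sites listed under both treatments ranked higher at the median than sites of 1 treatment, although a site in more lists also has more peaks from which its best is taken. The best peak of each of the 11 sites with peaks of both treatments lay, at the median, in the top 2.41% of its list, and the weakest such site in the top 24.3%. For the 19 sites with BMP6 peaks only the median was 64.6% and the best 14.3%. For the 5 sites with control peaks only the median was 75.1% and the best 41.9%. A weak peak near the IDR threshold can also miss 1 of the lists, which by itself places weak sites under 1 treatment. The same medians over all sites of the lists are not given, so nothing particular to the locus is read from them.

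Among single peaks, 11 of 21 BMP6 pSMAD1/5/9 peaks overlapped a control pSMAD1/5/9 peak, or 52.4% (95% Wilson interval 32.4% to 71.7%). Over all BMP6 pSMAD1/5/9 peaks this share was 11.4%. All 11 control pSMAD1/5/9 peaks overlapped a BMP6 one, with 84.7% over the list. Since the locus was chosen for its peaks and holds the most control pSMAD1/5/9 peaks of any gene, nothing is read from this difference. The intervals here and in the other shares cover counting error only, and neighboring peaks are not independent.

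For SMAD4, 20 of 38 BMP6 peaks overlapped a control peak, 52.6% (37.3% to 67.5%), against 45.5% of the list. In the other direction it was 22 of 28 control peaks, 78.6% (60.5% to 89.8%), against 69.7%. The interval held the share of the whole list in both directions. With an overlap of at least 50% of both peaks, 13 of 38 BMP6 SMAD4 peaks overlapped a control peak, 34.2%, against 34.3% of the list. For H3K27ac, 19 of 20 BMP6 peaks overlapped a control peak (72.0% over the list), and 22 of 22 control peaks overlapped a BMP6 peak (86.8%).

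Between the antibodies, 20 of 21 BMP6 pSMAD1/5/9 peaks overlapped a BMP6 SMAD4 peak, 95.2% (77.3% to 99.2%), against 73.2% of the list. In control cells all 11 pSMAD1/5/9 peaks overlapped a SMAD4 peak, against 84.0%. Starting from SMAD4, 23 of 38 BMP6 peaks overlapped pSMAD1/5/9, 60.5% (44.7% to 74.4%), with 42.7% over the list. In control cells it was 15 of 28, 53.6% (35.8% to 70.5%), with 10.1% over the list. The locus was chosen for its peaks and holds the most control pSMAD1/5/9 peaks of any gene, so nothing is read from these differences.

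SMAD4 was also listed in control cells where pSMAD1/5/9 was listed after BMP6. This held for 17 of 21 BMP6 pSMAD1/5/9 peaks, 81.0% (60.0% to 92.3%), against 57.2% of the list. With an overlap of at least 50% of both peaks it was 10 of 21, 47.6% (28.3% to 67.6%), against 44.3% of the list. BMP6 pSMAD1/5/9 peaks of the locus were wider than those of the list, with medians of 1023 bp and 582 bp. Every SMAD peak of the locus overlapped an H3K27ac peak of both treatments, as did at least 94.0% of the peaks of each SMAD list. The summits of overlapping BMP6 pSMAD1/5/9 and BMP6 SMAD4 peaks lay a median of 140.5 bp apart (n = 20), compared with 78.0 bp over the lists.

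H3K27ac peaks of the locus lay close together over much of the window. Peaks separated by no more than 3 kb were joined, a step chosen after the peaks had been seen. The stretch over the Pax7 TSS then ran for 201.9 kb with BMP6 (chr4:139408221-139610170, 18 peaks) and for 201.4 kb in control cells (chr4:139408201-139609600, 21 peaks). With this gap it was the longest of 46252 joined stretches with BMP6 and of 41771 in control cells, but with gaps of up to 10 kb it ranked 23 and 13 by length. With gaps of up to 3 kb the next longest measured 156.7 kb and 119.7 kb, the median 1.89 kb and 1.8 kb, and peaks covered 96.5% and 95.2% of the stretch at Pax7.

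With gaps of up to 3 kb, the ends of the stretch lay at nearly the same place under both treatments. The end on the Tas1r2 side, 152.6 kb downstream of the TSS, differed by 20 bp, and the upstream end, 49.3 kb and 48.8 kb from the TSS, by 570 bp. Beyond the upstream end no H3K27ac peak was listed for 522 kb with BMP6 and 523 kb in control cells. On the Tas1r2 side the next peak came after 3.22 kb with BMP6, at rank 76189, and after 36.3 kb in control cells. The ends depended on the gap. With gaps of up to 1 kb the upstream end lay 14.0 kb from the TSS with BMP6 and 16.0 kb in control cells. With gaps of up to 10 kb the end on the Tas1r2 side lay at 156.5 kb with BMP6 and 152.6 kb in control cells.

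SMAD peaks were set beside the control H3K27ac stretch joined over gaps of up to 3 kb. All 21 BMP6 and 11 control pSMAD1/5/9 peaks, all 28 control SMAD4 peaks and 37 of 38 BMP6 SMAD4 peaks lay wholly inside it, the last one crossing its upstream end. With gaps of up to 1 kb the control stretch ended 16.0 kb upstream. Beyond that end lay BMP6 SMAD4 peaks at 17.7, 43.9 and 48.8 kb and control SMAD4 peaks at 24.5 and 44.9 kb. Past the outermost SMAD peaks the next peak on the Tas1r2 side was 60.9 to 87.5 kb away, depending on the list. On the upstream side it was 271 kb away for BMP6 SMAD4, 701 kb for BMP6 pSMAD1/5/9, 756 kb for control SMAD4 and 10400 kb for control pSMAD1/5/9. These lists hold 12860, 7339, 8577 and 949 peaks in the same order. Their usual spacing is not given here, so the distances are not compared between lists. Whether the ends of the stretch coincide with the ends of the Pax7 sequence in the transgene was not tested.

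**Figure D4:**
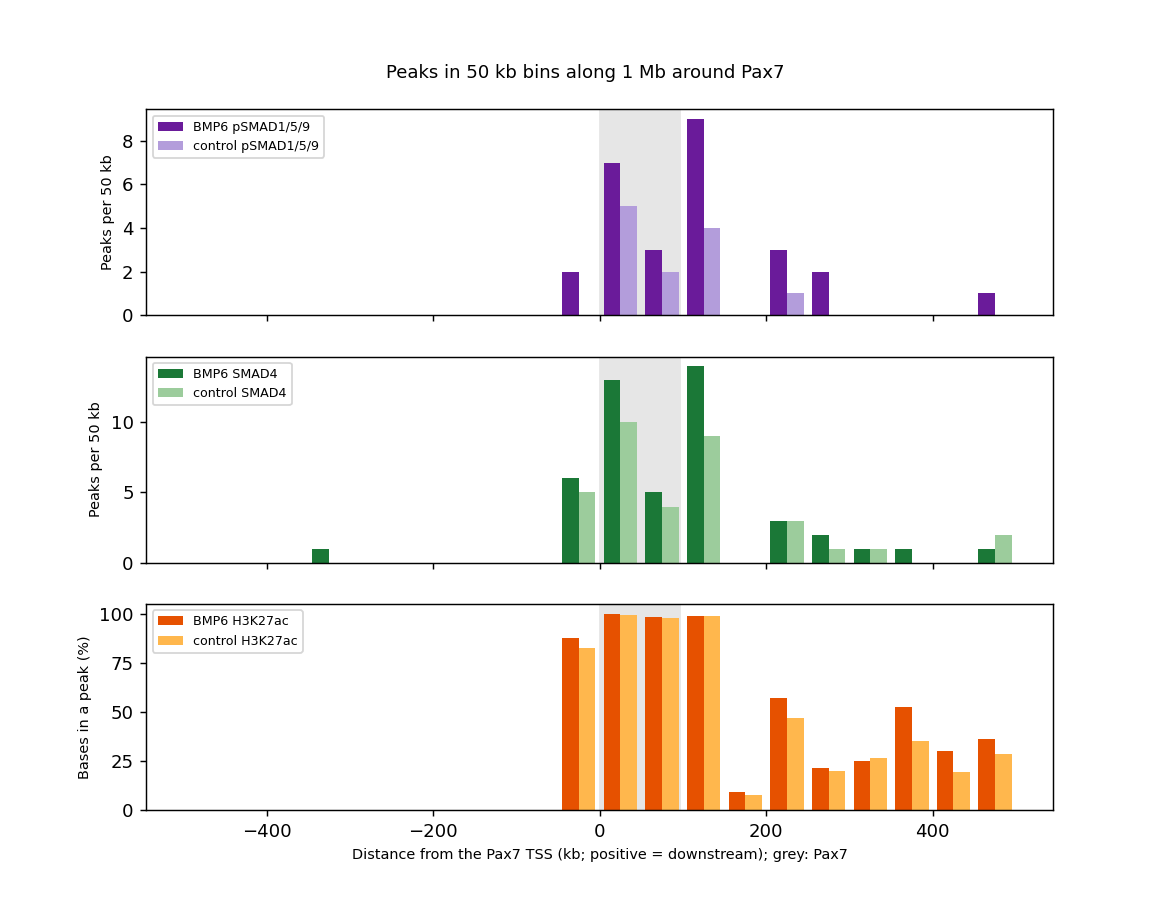
Bars give the number of pSMAD1/5/9 peaks (top) and SMAD4 peaks (middle) and the percent of bases in an H3K27ac peak (bottom) in 50 kb bins over 500 kb on both sides of the Pax7 TSS (x axis in kb, positive downstream), for BMP6 (dark) and control cells (light), with Pax7 in grey. H3K27ac covers 82.5% to 100% of each bin from 50 kb upstream to 150 kb downstream and no base farther upstream.

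At the edge of the window, the outermost members on the Tas1r2 side were H3K27ac peaks in Aldh4a1, at ranks 42219 with BMP6 and 29997 in control cells. Just outside it, at the Aldh4a1 TSS, lay a BMP6 pSMAD1/5/9 peak at rank 1850 and H3K27ac peaks at ranks 2334 and 1841. The outermost SMAD member upstream was a BMP6 SMAD4 peak at rank 8667, 48.8 kb from the TSS. The first SMAD4 peak outside on that side, at rank 11541, was 320.2 kb from the TSS.

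Among protein-coding genes, Pax7 had the most peaks in 3 of the SMAD lists. No other gene reached its 11 control pSMAD1/5/9 peaks, 38 BMP6 SMAD4 peaks or 28 control SMAD4 peaks, while the median gene had 0, 1 and 1. Its 21 BMP6 pSMAD1/5/9 peaks were matched by 1 other gene, Zmiz1, a transcriptional coactivator named here after its value was seen. By contrast, 21.6% of genes had as many BMP6 H3K27ac peaks or more and 12.5% as many control ones. Windows of long genes are wider than those of short ones. With 150 kb on both sides of the TSS for every gene, Pax7 still had 21 BMP6 pSMAD1/5/9 peaks, and 10 genes including Pax7 had as many or more.

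**Figure D5:**
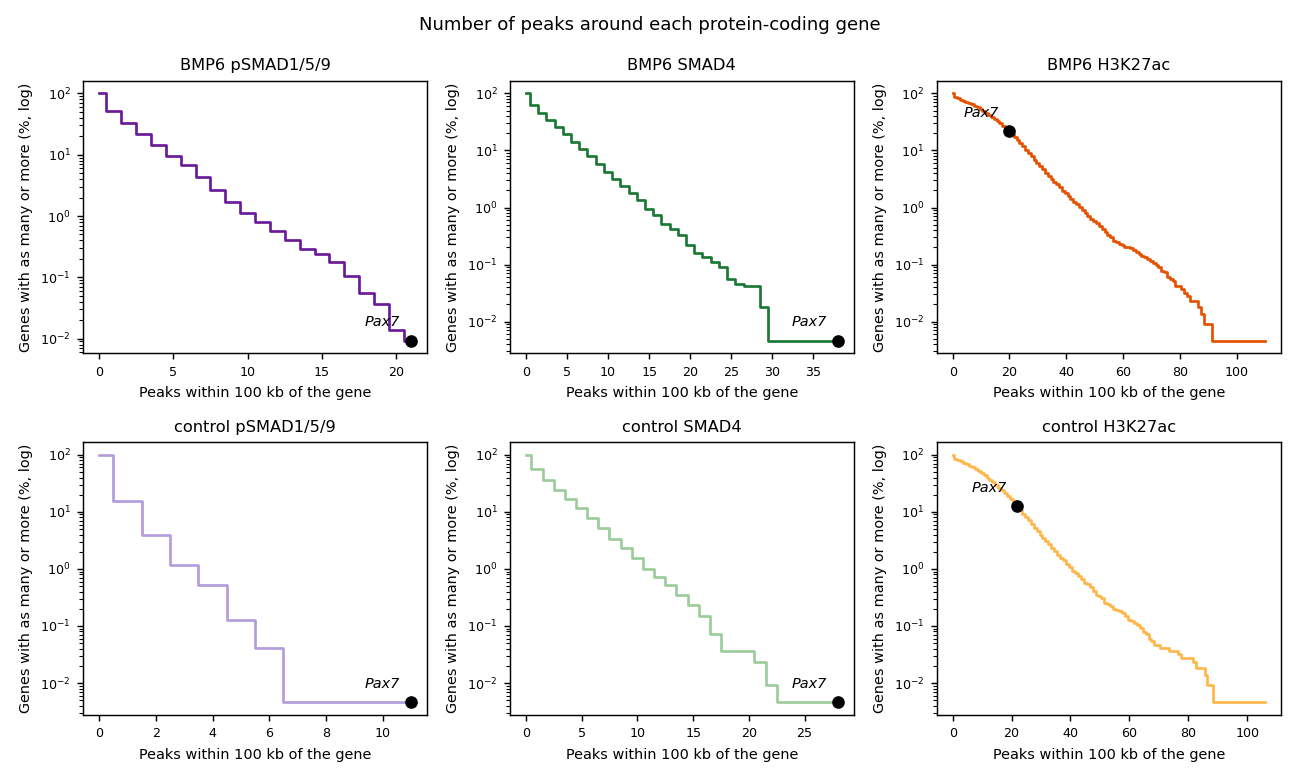
For each list, the line gives the percent of 21757 protein-coding genes (y axis, log scale) with at least the number of peaks on the x axis within their body and 100 kb on both sides, and the dot marks Pax7. Pax7 lies at the far end of the 4 SMAD curves and in the upper part of the 2 H3K27ac curves.

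The 5 genes whose peak numbers were most like those of Pax7 over the 6 lists were Rab25, Mex3a, Lamtor2, Ubqln4 and Ssr2. Likeness was the Euclidean distance between log2(count + 1) values, which was 1.2 for Rab25 and 1.23 for Ssr2. The 5 genes are neighbors on chromosome 3, so their windows share peaks. Rab25, a small GTPase, had 19 BMP6 and 5 control pSMAD1/5/9 peaks and 28 BMP6 and 21 control SMAD4 peaks. No gene exceeded Pax7, which was chosen for its peaks, in any of the 4 SMAD lists. Nothing is therefore read from the lower SMAD counts of Rab25. Its 22 and 26 H3K27ac peaks exceeded those of Pax7 in number, but the widths of these peaks were not compared.

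The neighbors of Pax7 on its 2 sides differed. Tas1r2, whose window overlaps the distal cluster, counted 15 BMP6 and 6 control pSMAD1/5/9 peaks. On the upstream side, Klhdc7a and Igsf21 had none. For SMAD4, Klhdc7a had 2 BMP6 peaks and 1 control peak, and Igsf21 had 1 and 0.

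Sequence elements were searched on both strands in 200 bp windows at the summits. The GC-rich SMAD element, GGAGCC or GGCGCC, was in 8 of 21 BMP6 pSMAD1/5/9 windows of the locus, 38.1% (20.8% to 59.1%), and in 30.2% of all windows of that list. It was in 2 of 11 control pSMAD1/5/9 windows, 10 of 38 BMP6 SMAD4 and 9 of 28 control SMAD4 windows, with 29.3%, 28.4% and 28.2% over the lists. All 4 intervals held the share of the list. The palindrome GTCTAGAC, and GGCGCC followed after 5 bases by GTCT, were in none of the windows at Pax7, and in no more than 1.26% and 0.211% of the windows of any list.

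The other elements were found at Pax7 as well. The E-box CAGCTG, to which myogenic factors such as MyoD bind, was in 5 of 21 BMP6 pSMAD1/5/9 windows and 9 of 38 BMP6 SMAD4 windows, with 31.1% and 29.1% over the lists. The AP-1 element TGAGTCA or TGACTCA was in 4 of 21 and 6 of 38, with 15.5% and 15.1% over the lists. The RBPJ element ATGGGAA or GTGGGAA was in 3 of 21 BMP6 pSMAD1/5/9 windows, and the TEAD element GGAATG in 2 of 21, against 8.45% and 15.8% over the list. The intervals for BMP6 pSMAD1/5/9 at the locus, which ran from 2.65% at the lowest to 45.1% at the highest for these 4 elements, each held the share of the list. With windows of 400 bp those for the E-box, AP-1 and TEAD elements held it as well. The RBPJ element was then in 7 of 21, 33.3% (17.2% to 54.6%), against 16.8% over the list, just outside the interval. In BMP6 SMAD4 windows of 400 bp it was 10.5% against 16.5%. With many intervals looked at, nothing is read from this. A match is a run of letters and not evidence of binding.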

How the data were processed

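The data are CUT&Tag libraries for pSMAD1/5/9, SMAD4 and H3K27ac from cultured MuSCs, grouped by antibody and treatment as labelled. The authors brought the libraries of each antibody to the same read depth by subsampling, mapped reads on GRCm39 (Bowtie2 2.5.4), kept high-quality proper pairs outside blacklisted regions (SAMtools 1.21, bedtools 2.31.1) and called peaks per replicate with JAMM. Replicates were combined by irreproducible discovery rate (IDR) at 0.05. The deposited lists give each peak a signal score, the sum of both replicates' scores, a scaled IDR score, and IDR as −log10 values. They hold no read counts, and the replicate columns carry no number. All columns used were assigned to a group (0 left out).

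Overlaps of at least 1 bp with GENCODE canonical transcripts (21757 protein-coding genes) were counted with Python 3.11.15 and pandas 2.3.3 and checked on simulated peaks. Sequence was read with pysam 0.24.0. Intervals are 95% Wilson intervals. Each list is 1 consensus of 2 replicates, so treatments were not tested against each other. Described in full were the 3 strongest peaks of each SMAD list, peaks within 2 kb of the TSS and sites in all 4 SMAD lists. Genes named were those in the window, the 5 most alike in peak numbers, neighbors, and Zmiz1. The locus, marker lists and motifs were chosen with earlier results of these data known. Alternatives changed the IDR threshold, window, overlap, ranking and motif width. Joining H3K27ac peaks, with its gap sizes, was added after seeing the data.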

Additional observations from a re-analysis of the deposited data

How the results depend on the processing

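Of 82 values under alternative settings, 53 stayed close to those reported and 29 moved. With IDR at most 0.01 the locus held 7 control pSMAD1/5/9, 23 BMP6 SMAD4 and 16 control SMAD4 peaks. With 200 kb on both sides it held 33 BMP6 and 34 control H3K27ac peaks. The share of BMP6 SMAD4 peaks overlapping a control SMAD4 peak was 69.6% at the stricter IDR and 34.2% when an overlap of 50% of both peaks was required. For BMP6 pSMAD1/5/9 with BMP6 SMAD4 these were 100% and 71.4%, for BMP6 pSMAD1/5/9 with control SMAD4 94.1% and 47.6%, and for control pSMAD1/5/9 with control SMAD4 72.7% at the 50% overlap. Over the whole lists the shares at the 50% overlap were 57.1%, 44.3% and 68.8% for these pairs in the same order. Ranked by IDR, where many peaks tie, the strongest peak ranked 1 in the BMP6 pSMAD1/5/9, BMP6 SMAD4 and control SMAD4 lists and 8 in the control pSMAD1/5/9 list. Ranked by each replicate column alone, it ranked 12 in both for BMP6 pSMAD1/5/9, 11 to 16 for control pSMAD1/5/9, 44 to 71 for BMP6 SMAD4, 13 to 16 for control SMAD4, 20 to 182 for BMP6 H3K27ac and 8 to 222 for control H3K27ac. With 150 kb around each TSS, the share of genes with as many peaks as Pax7 or more was 0.046% for BMP6 pSMAD1/5/9, 38.0% for BMP6 H3K27ac and 26.8% for control H3K27ac. At the stricter IDR it was 18.7% and 7.33% for BMP6 and control H3K27ac. The GC-rich SMAD element was in 47.4% of BMP6 SMAD4 windows of 400 bp at the locus (32.5% to 62.7%), against 45.1% over the list. Apart from what the settings themselves change, the cause was not tested. Joining H3K27ac peaks over gaps of up to 1 kb gave stretches of 166.6 kb and 168.6 kb for BMP6 and control, the longest in both lists. With gaps of up to 10 kb they ranked 23 and 13 by length. No paired analysis was possible because the consensus lists carry no replicate numbers and no test was made.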
